A study of Mus musculus with 8 samples.

Results

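The MHC class II genes of mouse islet tissue were followed here across cell types and treatments. The 7 genes were taken by symbol from the single-cell count table, where they are 7 of 19945 gene rows: *Cd74*, *H2-Aa*, *H2-Ab1*, *H2-Eb1*, *H2-DMa*, *H2-DMb1* and *Ciita*. The table holds unique molecular identifier (UMI) counts of 6959 cell barcodes, here called droplets, which the authors had annotated as 12 cell classes from 17 clusters. Wild-type mice, 6 to 12 weeks old at the start, were given vehicle or the focal adhesion kinase inhibitor (FAKi) PF562271 by oral gavage, at 50 mg/kg, 2 times a day for 3 weeks. Islets were isolated and handpicked 10 days after the last dose and pooled from 5 mice per treatment, so the barcodes carry no record of the animal. The 8 samples were 4 sequencing lanes of each of 2 libraries. Each treatment was therefore 1 library, no difference between treatments has a replicate check, and no p-value is given. The comparison asks how the cell types of the islets differed after the drug course. It is given below as levels in both libraries.

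MHC class II molecules are cell-surface heterodimers that present peptides from endocytosed proteins to CD4+ T cells. Dendritic cells, macrophages and B cells are their usual carriers, while other cells, endothelium among them, can be induced to make them by interferon-γ. The invariant chain, encoded by *Cd74*, occupies the groove of new class II dimers and takes them to endosomes, where its remnant is exchanged for antigenic peptide with the help of the DM heterodimer. *H2-Aa* and *H2-Ab1* encode the α and β chains of the classical molecule I-A, *H2-Eb1* the β chain of I-E, *H2-DMa* and *H2-DMb1* the chains of DM, and *Ciita* the coactivator that class II promoters require. In islets, class II molecules are known for displaying β-cell peptides on resident macrophages.

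5 of the 7 genes lie close together on chromosome 17 (GRCm38, GENCODE M21). *H2-DMa* spans chr17:34119541-34139101 and *H2-DMb1* chr17:34153072-34160230. *H2-Ab1* lies at chr17:34257689-34269419, *H2-Aa* at chr17:34282744-34287823 on the minus strand, and *H2-Eb1* at chr17:34305867-34316674. *Ciita* is at chr16:10480059-10528418. The 150 bases before the RefSeq start (GRCm38.p6) of *H2-Aa* (minus strand, chr17:34287824-34287973) and of *H2-Eb1* (plus strand, chr17:34305717-34305866) are shown because the counts of these chains moved apart in some droplets described further on. Capitals mark the X box core AGCAAC and the Y box ATTGG, letters of the element on which the CIITA-bound complex assembles, searched on both strands.
H2-Aa: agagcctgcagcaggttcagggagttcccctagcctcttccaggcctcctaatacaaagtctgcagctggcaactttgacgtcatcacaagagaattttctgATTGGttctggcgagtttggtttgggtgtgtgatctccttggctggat
H2-Eb1: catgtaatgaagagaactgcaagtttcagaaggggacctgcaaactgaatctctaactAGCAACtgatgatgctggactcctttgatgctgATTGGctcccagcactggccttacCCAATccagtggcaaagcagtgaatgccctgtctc

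In *H2-Eb1* the X box core letters began 92 bases and the Y box letters 59 bases before the start, with Y box letters on the other strand at 35 bases. *H2-Aa* held the Y box letters at 48 bases, and *H2-DMb1* at 61 bases. Over 250 bases before the start, 12.2% of 32851 RefSeq promoters held the X box core letters, 33.8% the Y box letters and 4.31% both, so the short letters are common by themselves.

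The vehicle library held 3776 droplets and 59514118 UMIs, the FAKi library 3183 droplets and 57836783 UMIs, and 4 barcodes occurred in both. Levels are counts per 1000000 UMIs (CPM) of the summed droplets of a class. Brackets after a CPM value or a ratio hold a 95% interval that covers counting error only, not the spread between mice. The vehicle library held 70511 UMIs of the 7 genes, or 1185 CPM, and the FAKi library 24212 UMIs, or 419 CPM. Macrophages and B cells were 6.41% of the vehicle droplets and held 93.2% of its class II UMIs. In the FAKi library they were 2.01% of the droplets and held 86.0%. These 2 classes pooled had a class II level of 35848 CPM in 242 vehicle and 35565 CPM in 64 FAKi droplets. Library totals by themselves do not separate fewer antigen-presenting cells from less RNA per cell, which was not tested. The share of a cell type in handpicked islets depends on the preparation.

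Summed over the 7 genes, the classes of the vehicle library ran from macrophages at 42001 CPM (41635 to 42369) and B cells at 24197 CPM (23816 to 24583) down to β-cells at 10.7 CPM (9.59 to 11.8). The T-cell class had 2025 CPM, of which 1726 of 1997 UMIs came from 1 droplet. The next in order were one of the acinar classes, Acinar_cells_1, at 286 CPM and endothelial cells at 272 CPM, whose intervals overlapped. Ductal cells had 139 CPM, fibroblasts 60.4 and pericytes 52.2, and the intervals of fibroblasts and pericytes overlapped. The other acinar class, 2_Acinar_cells, had 31.0 CPM, δ-cells 27.2 and α-cells 22.7, and these 3 could not be ordered beyond counting error. In the FAKi library B cells (38845 CPM, 9 droplets) stood above macrophages (35070 CPM), an order that turned to 27824 and 40387 CPM without droplets holding *Xcr1* UMIs, a dendritic-cell gene. They were followed by T cells (3646), endothelial cells (437) and ductal cells (73.2). The remaining 7 classes lay between 5.96 and 47.6 CPM.

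**Figure D1:**
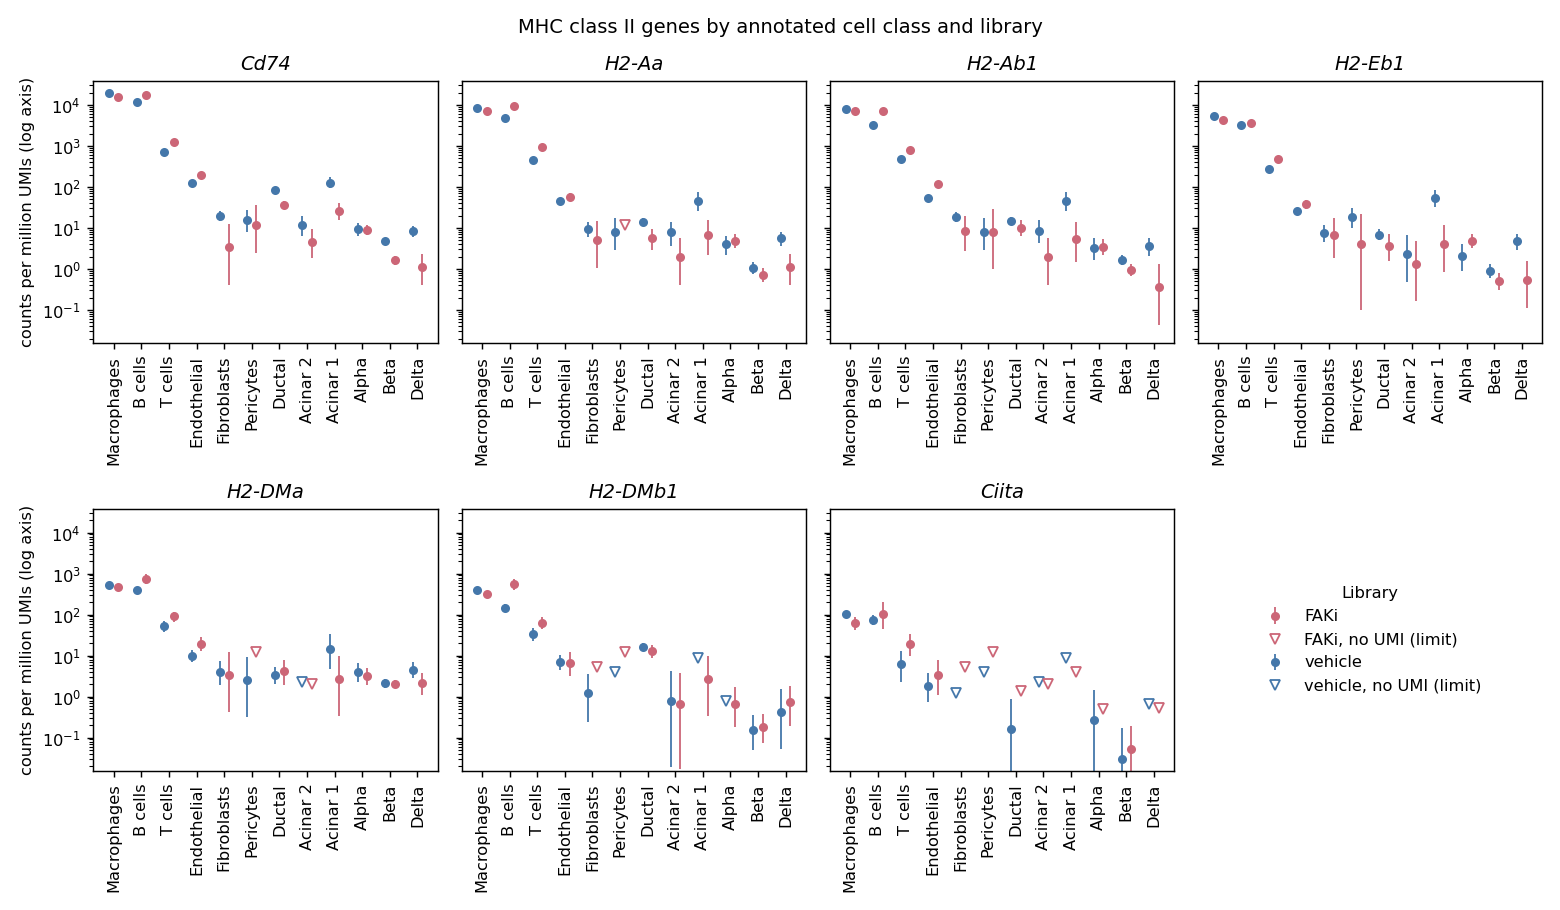
Level of each of the 7 genes (CPM, log axis) in the 12 annotated classes of the vehicle and FAKi libraries, 1 panel per gene. Bars are 95% counting intervals and open triangles mark the limit that a count of 0 allows. Macrophages and B cells stood highest for every gene in both libraries, and *H2-DMb1* was higher in ductal cells than in the classes other than macrophages, B cells and the T-cell class.

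In islet macrophages all 7 genes were detected, and none differed 2-fold between the summed libraries. The class held 129 vehicle and 55 FAKi droplets with median depths of 7423 and 7734 UMIs. Its macrophage markers summed to 15999 CPM in the vehicle library and 19881 CPM in the FAKi library. Invariant chain *Cd74* was at 19318 CPM in the vehicle and 15824 CPM in the FAKi library, a ratio of 0.819 (0.799 to 0.840). Among the chains of I-A, *H2-Aa* was at 8497 and 7093 CPM (ratio 0.835, 0.803 to 0.867) and *H2-Ab1* at 7742 and 7095 CPM (0.916, 0.882 to 0.952). *H2-Eb1* was at 5408 and 4197 CPM (0.776, 0.739 to 0.815). Over all droplets of the class, every one of these 4 ratios lay below 1, with the lowest for the β chain of I-E.

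The DM chains and the coactivator were rarer but still widely detected. *H2-DMa* was at 538 CPM in the vehicle and 484 CPM in the FAKi library (0.900, 0.774 to 1.04), in 78.3% and 74.5% of droplets. *H2-DMb1* was at 397 and 315 CPM (0.793, 0.659 to 0.951). *Ciita* had 121 and 32 UMIs, or 101 and 62.9 CPM (0.624, 0.409 to 0.928), in 43.4% and 32.7% of droplets. With droplets thinned to 1000 UMIs the *Ciita* order turned (68.4 and 191 CPM). It then had 8 UMIs in 117 vehicle and 9 in 47 FAKi droplets. *Cd74* turned too, at 21795 CPM in vehicle and 23553 CPM in FAKi macrophages. *H2-Aa* (9573 and 9766 CPM) and *H2-Ab1* (8590 and 10681 CPM) turned likewise, so none of these directions is secure. *H2-Eb1* (6214 and 5298 CPM), *H2-DMa* (675 and 574 CPM) and *H2-DMb1* (376 and 319 CPM) stayed lower in the FAKi library. The 7 genes had a median log2 ratio of -0.29, beside -0.07 for the 1975 genes with at least 100 UMIs in macrophages, of which 5.77% were past 2-fold. *Cd74* UMIs were found in 93.0% of vehicle and 96.4% of FAKi macrophages.

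A few droplets carried the difference in the macrophage sums. *Xcr1*, a chemokine receptor that marks cross-presenting dendritic cells, had UMIs in 8 vehicle and 3 FAKi droplets of this class. The 8 vehicle droplets had 67186 CPM of class II. The 3 FAKi droplets had 7731 CPM, and 1 of them alone, with 59404 UMIs of which 19781 were *Ins2*, was 11.7% of the class's UMIs. Without the droplets with *Xcr1* UMIs the class II sum was 39896 CPM in 121 vehicle and 40387 CPM in 52 FAKi macrophages, a ratio of 1.01 (0.995 to 1.03). The *Cd74* ratio was then 0.981, *H2-Aa* 1.02, *H2-Ab1* 1.14 (1.09 to 1.18), *H2-Eb1* 0.943, and *Ciita* 0.632 (0.395 to 0.978). Transcripts of other cells also differed in this class: acinar markers summed to 1098 CPM in vehicle and 6863 CPM in FAKi macrophages, α-cell markers to 181 and 2358 CPM. Their part in the result was not tested.

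The annotated macrophage class was mixed. Dendritic-cell markers had UMIs in 79 of 129 vehicle and 31 of 55 FAKi droplets, at 502 and 246 CPM. *Ccr7*, a receptor of migrating dendritic cells, had UMIs in 20 vehicle droplets and 1 FAKi droplet. Droplets with *Cd209a* UMIs, a lectin of conventional dendritic cells and monocyte-derived cells, had 61706 CPM of class II in 18 vehicle and 72466 CPM in 4 FAKi droplets. At the other end, 5 vehicle droplets with 33 to 743 UMIs of the neutrophil gene *S100a8* held 1 class II UMI together. At least 20 class II UMIs were counted in 110 of 129 vehicle and 49 of 55 FAKi macrophages, and none in 7 and 1.

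**Figure D2:**
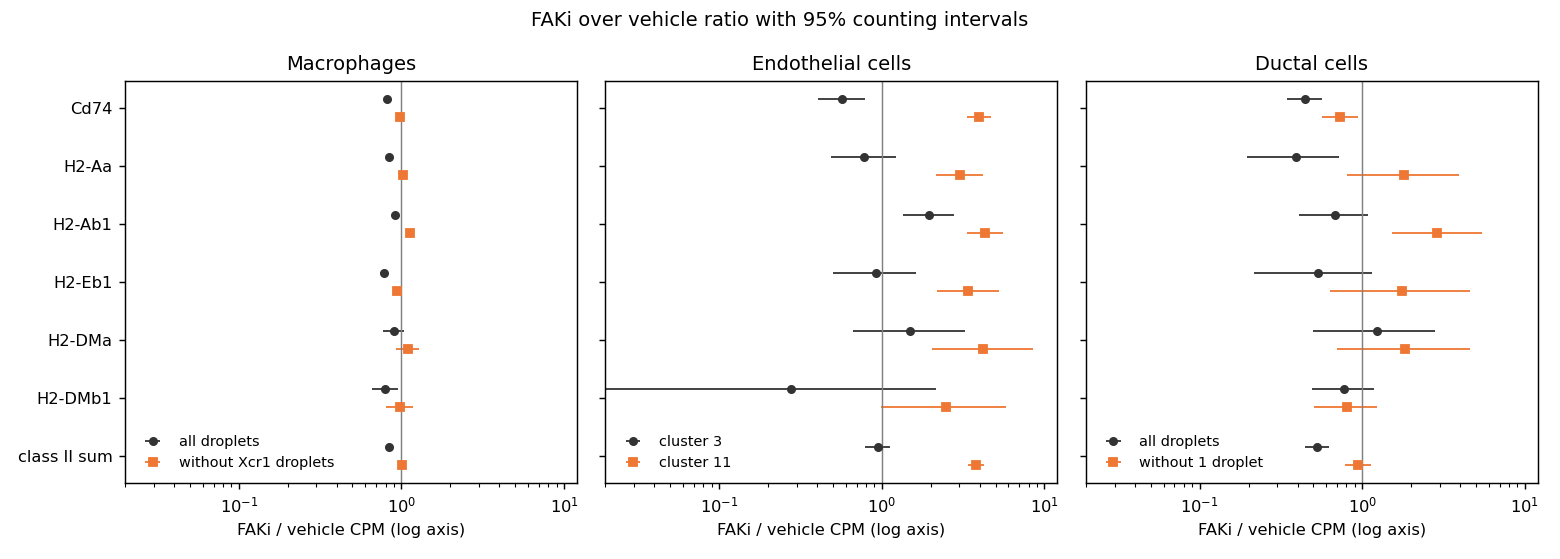
FAKi over vehicle ratio (log axis) of 6 of the genes and of the sum over all 7 in macrophages, endothelial cells and ductal cells, with 95% counting intervals; *Ciita* is not drawn alone. Macrophages are shown with and without droplets holding *Xcr1* UMIs, endothelial cells as clusters 3 and 11, and ductal cells with and without 1 vehicle droplet. The macrophage sum moved from 0.835 to 1.01, and cluster 11 lay above cluster 3 for each gene drawn. The *H2-DMb1* interval of cluster 3 runs past the left edge.

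The balance of the chains was much alike in the macrophages of both libraries. For every 100 *Cd74* UMIs, vehicle macrophages held 44.0 *H2-Aa* UMIs (43.0 to 45.0) and FAKi macrophages 44.8. *H2-Ab1* stood at 40.1 (39.1 to 41.1) and 44.8 (43.1 to 46.6), and *H2-Eb1* at 28.0 and 26.5. The DM chains gave 2.78 and 3.06 for *H2-DMa* and 2.05 and 1.99 for *H2-DMb1*. Scaled to *Cd74* in this way, *H2-Ab1* had intervals that did not overlap between the libraries.

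B cells of the vehicle library had less class II RNA than macrophages and a different mix of DM and DO chains. In its 113 droplets (median depth 4137 UMIs) *Cd74* was at 12087 CPM, *H2-Aa* at 4906, *H2-Ab1* at 3313 and *H2-Eb1* at 3260 CPM. The B-cell level over the macrophage level of the same library was 0.626 for *Cd74*, 0.577 for *H2-Aa*, 0.603 for *H2-Eb1* and 0.428 (0.408 to 0.449) for *H2-Ab1*. *Ciita*, at 74.2 CPM, was 0.736 of the macrophage level (0.514 to 1.04), an interval that includes equal levels. These are differences between cells of 1 library and were not tested.

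Among the peptide-exchange genes the β chains differed more between the cell types than the α chains. *H2-DMa* was at 409 CPM in B cells, 0.760 of the macrophage level (0.656 to 0.880). *H2-DMb1* was at 148 CPM in B cells, 0.374 of the macrophage level (0.297 to 0.467). *H2-DMb2*, a neighbouring second DM β gene, was at 597 CPM in B cells and 99.2 CPM in macrophages, 6.02-fold higher (4.88 to 7.46). Because the copies are near-identical, how the counting divided reads between them is uncertain. *H2-Ob*, the β chain of DO, which restrains DM in B cells, was at 140 and 38.3 CPM, 3.66-fold higher (2.54 to 5.35), and its partner *H2-Oa* at 101 and 69.2 CPM (1.46, 1.04 to 2.05).

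**Figure D3:**
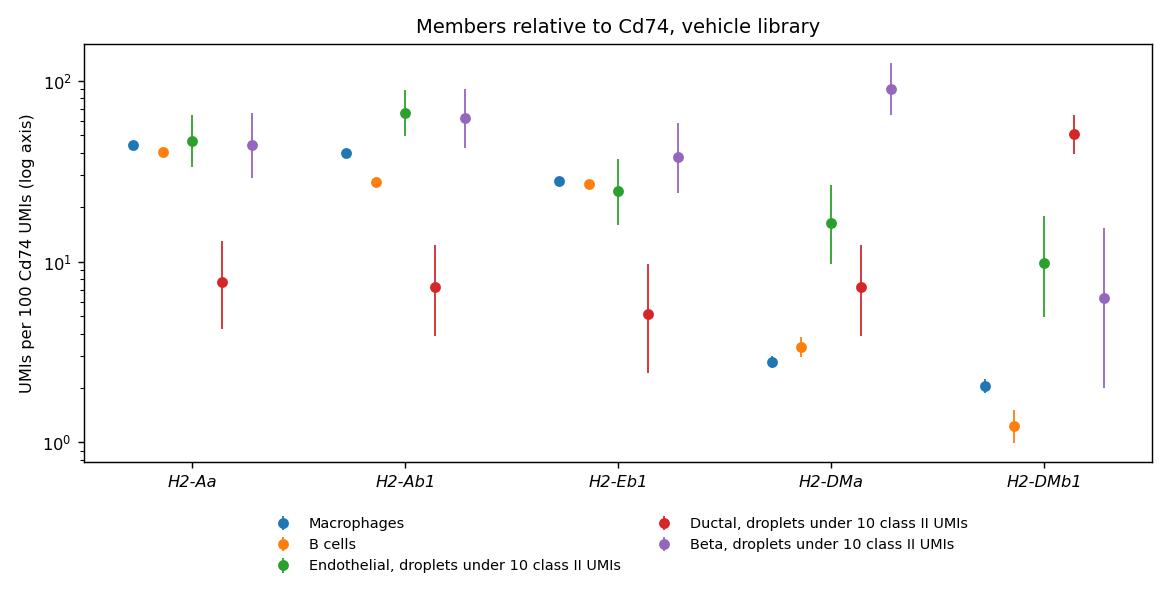
UMIs of 5 genes for every 100 *Cd74* UMIs in 5 classes of the vehicle library, with 95% counting intervals. Endothelial, ductal and β-cells are limited to droplets with under 10 class II UMIs. Ductal cells so limited held 50.5 *H2-DMb1* UMIs per 100 *Cd74* UMIs, and macrophages and B cells, not limited, 2.05 and 1.23. The limit also drops *Cd74*-rich ductal droplets. With only the ductal droplet with the most class II UMIs left out, the value was 32.1.

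The FAKi library had only 9 droplets annotated as B cells, and 5 of them went against the label. Those 5 had 6 to 12 *Xcr1* UMIs and 0 to 2 UMIs of the B-cell markers. Their class II counts were 814, 644, 496, 391 and 167 UMIs. The other 4 had 9 to 50 B-cell marker UMIs, no *Xcr1* UMI, and 239, 105, 94 and 31 class II UMIs. All 9 together gave a class II ratio to vehicle of 1.61 (1.54 to 1.67), and 2 of 6 members with at least 100 UMIs were past 2-fold higher, *H2-Ab1* (3313 and 7089 CPM, 2.14) and *H2-DMb1* (148 and 560 CPM, 3.78), beside 24.5% of 795 genes in either direction and 8.93% higher. Over the 4 droplets without *Xcr1* UMIs the sum was 27824 CPM and the ratio 1.15 (1.05 to 1.26), with *H2-Aa* at 0.992 and *H2-Eb1* at 0.673. With 4 droplets that may share a mouse, no level of FAKi B cells is secure.

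Some antigen-presenting droplets of the FAKi library held both chains of I-A but almost no *H2-Eb1*. Among droplets of all classes with at least 20 *H2-Aa* UMIs, 6 of 47 FAKi droplets (12.8%) had fewer than 0.1 *H2-Eb1* UMIs for each *H2-Aa* UMI. In the vehicle library 0 of 161 did, a count that allows at most 1.86% by counting error alone. Droplets of 1 pooled library are not replicates, so the shares describe these libraries. The 6 droplets had *H2-Aa* counts of 122, 41, 83, 47, 33 and 25 UMIs and, in the same order, *H2-Eb1* counts of 1, 0, 0, 0, 1 and 2 UMIs. Their *H2-Ab1* counts were 118, 37, 93, 64, 34 and 27 UMIs, close to *H2-Aa* in each. In sum, 4 *H2-Eb1* UMIs stood beside 351 *H2-Aa* UMIs.

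Elsewhere the chains kept pace. The median *H2-Eb1* to *H2-Aa* ratio of a droplet, with the 6 low droplets included, was 0.618 for vehicle and 0.5 for FAKi. The lowest vehicle droplet was at 0.190, and above the 6 droplets, of which the highest was at 0.08, the next FAKi droplet was at 0.272. *H2-Ab1* per *H2-Aa* ran from 0.190 to 1.61 over vehicle droplets and from 0.378 to 1.46 over FAKi droplets. Of the 6 droplets, 4 were annotated as macrophages (of 37 such droplets, 10.8%) and 2 as B cells, both with *Xcr1* UMIs. Both limits were set after the values had been seen. Over macrophages, B cells and T cells alone, the counts were 10 of 57 FAKi and 2 of 222 vehicle droplets at 5 or more *H2-Aa* UMIs. They were 8 of 51 and 0 of 204 at 10 or more, and 4 of 35 and 0 of 102 at 40 or more. Whether the 6 droplets came from 1 mouse cannot be told apart in the pooled library.

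**Figure D4:**
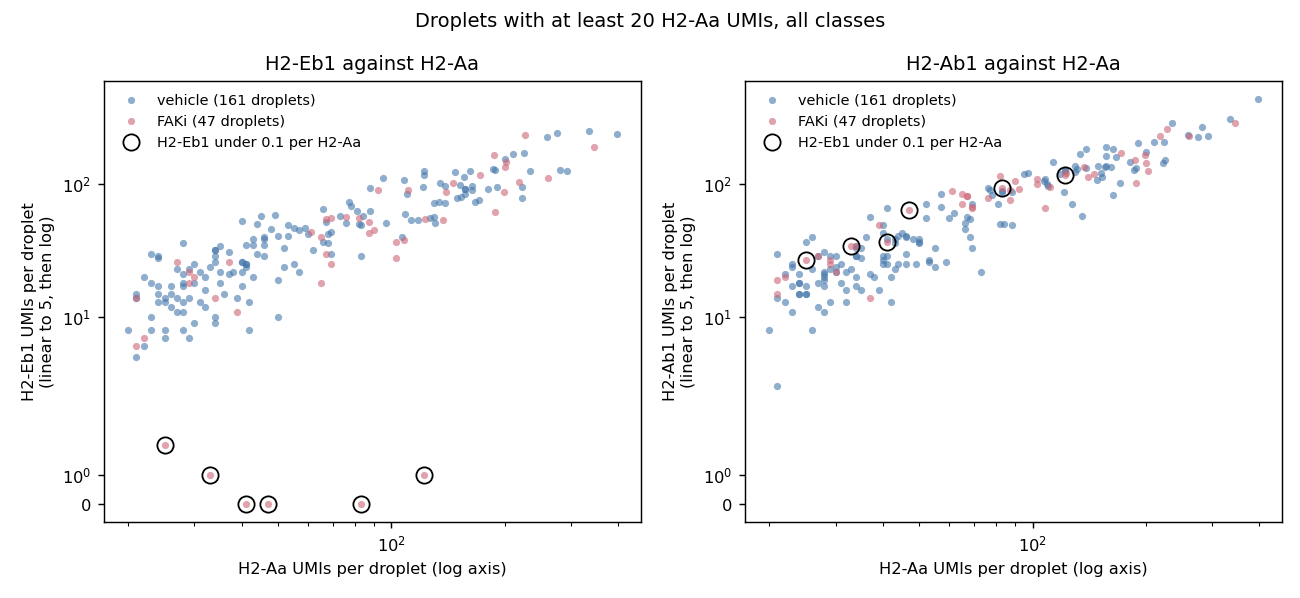
*H2-Eb1* and *H2-Ab1* UMIs (axis linear at low counts, then log) against *H2-Aa* UMIs (log axis) of each droplet with at least 20 *H2-Aa* UMIs, 161 vehicle and 47 FAKi droplets. The 6 circled FAKi droplets held 0 to 2 *H2-Eb1* UMIs but followed the other droplets for *H2-Ab1*.

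Endothelial cells carried low levels of class II RNA that came mostly from a few droplets, and the FAKi library was higher. *Cd74* was at 128 CPM in 543 vehicle and 192 CPM in 269 FAKi droplets (ratio 1.51, 1.30 to 1.75). *H2-Ab1* was at 54.7 and 120 CPM (2.20, 1.79 to 2.70), *H2-Aa* at 45.7 and 57.9 CPM (1.27, 0.967 to 1.65) and *H2-DMa* at 9.78 and 19.3 CPM (1.97, 1.17 to 3.30). *H2-DMb1* was at 6.88 and 6.65 CPM (0.968), and *Ciita* had 7 and 5 UMIs. Of the 4 members with at least 100 UMIs, 1 was past 2-fold higher, *H2-Ab1*, beside 2.54% of 6653 genes in either direction and 0.466% in that direction. The members' median log2 ratio was 0.55 and that of all genes -0.03.

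A class II UMI was found in 28.7% of vehicle and 20.4% of FAKi endothelial droplets, at median depths of 5752 and 4836 UMIs. Thinned to 1000 UMIs, the shares were 11.9% (63 of 530) and 12.6% (32 of 253), so no difference in detection of the summed genes was seen at equal depth. *H2-Ab1* by itself was then detected in 4.15% of vehicle and 8.70% of FAKi droplets, *Cd74* in 5.85% and 6.32%, and *H2-Aa* in 3.40% and 3.16%. At least 10 class II UMIs were found in 23 vehicle droplets (4.24%) and 19 FAKi droplets (7.06%). These held 68.4% and 86.1% of the class II UMIs of the endothelium. The remaining droplets were at 93.4 CPM in the vehicle and 66.6 CPM in the FAKi library, a description of a split made on the class II count itself, which also depends on depth.

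The 2 endothelial clusters differed in this, which was not tested. Cluster 3 (371 and 229 droplets) had 152 CPM of class II in the vehicle and 143 CPM in the FAKi library (0.941, 0.782 to 1.13), where *Cd74* was at 67.6 and 38.7 CPM (0.572, 0.405 to 0.793) and *H2-Ab1* at 27.4 and 53.2 CPM (1.94, 1.36 to 2.77). Cluster 11 (172 and 40 droplets), led by *Ccl21a*, *Selp*, *Ackr1* and *Vcam1*, genes known from venous and lymphatic endothelium, had 483 and 1834 CPM (3.80, 3.37 to 4.27). In cluster 11 *Cd74* was at 233 and 923 CPM (3.96), *H2-Aa* at 73.6 and 222 CPM (3.02), and *H2-Ab1* at 103 and 440 CPM (4.28). The ratios were 3.41 for *H2-Eb1*, 4.20 for *H2-DMa* and 2.49 (0.992 to 5.77) for *H2-DMb1*. At least 10 class II UMIs were found in 16 of 172 vehicle (9.30%) and 12 of 40 FAKi droplets (30.0%). The cluster took 172 of 543 vehicle but 40 of 269 FAKi endothelial droplets, so the cells compared within it may not be alike.

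Markers of blood cells were found in the endothelium. The dendritic-cell list was the highest of them, at 157 CPM in 51.4% of vehicle and 159 CPM in 48.7% of FAKi droplets, with 4 and 5 of its 8 genes at 0. That list holds *Zbtb46* and *Fscn1*, which endothelial cells also express. B-cell markers summed to 42.3 CPM in the vehicle and 3.33 CPM in the FAKi library, macrophage markers to 22.5 and 19.96 CPM, and *Ptprc*, the pan-leukocyte gene, to 4.23 and 7.32 CPM. In the vehicle library 3 droplets with 51, 40 and 39 B-cell marker UMIs held 202, 91 and 86 class II UMIs. Without droplets with 3 or more B-cell marker UMIs the endothelium was at 175 CPM in the vehicle and 437 CPM in the FAKi library (2.50), and cluster 11 at 345 and 1834 CPM (5.32, 4.67 to 6.06). Of the 19 FAKi droplets with at least 10 class II UMIs, none held a B-cell marker UMI and 4 held a macrophage marker UMI. A dendritic-cell marker UMI was held by 7 of the 19, and by 0 when *Zbtb46* and *Fscn1* were not counted. Islet-cell transcripts differed in the endothelium too. α-cell markers summed to 790 and 5407 CPM and β-cell markers to 54512 and 80346 CPM, while δ-cell markers went the other way, 1052 and 216 CPM. Their part in the result was not tested.

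**Figure D5:**
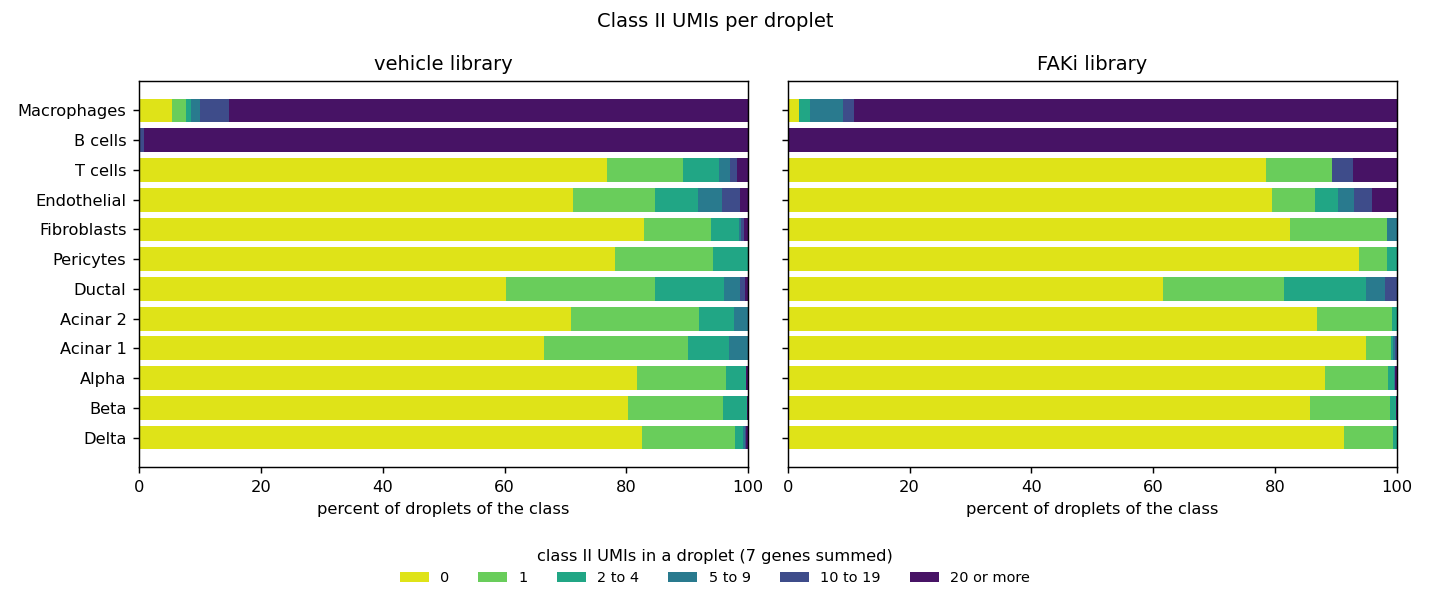
Percent of droplets of each class by their number of class II UMIs, from none to 20 or more, in the vehicle and FAKi libraries. Macrophages and B cells were mostly at 20 or more UMIs, while 28.7% of vehicle and 20.4% of FAKi endothelial droplets held any, at unequal depths (11.9% and 12.6% when thinned to 1000 UMIs).

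Ductal cells had an uneven set of the 7 genes: *Cd74* and *H2-DMb1* were widely detected and the I-A and I-E chains were nearly absent. *Cd74* UMIs were found in 21.7% of 498 vehicle and 21.8% of 156 FAKi droplets, and *H2-DMb1* UMIs in 17.5% and 14.7%. *H2-Aa*, by contrast, was found in 3.82% and 3.85% and *H2-DMa* in 2.81% and 5.13% of droplets. *Ciita* had 1 UMI in the vehicle and 0 in the FAKi ductal cells, and a count of 0 allows up to 1.38 CPM there. Of the 108 vehicle droplets with *Cd74*, 93 had no UMI of *H2-Aa*, *H2-Ab1* or *H2-Eb1*, as did 79 of the 87 with *H2-DMb1*. In macrophages 2 of 120 droplets with *Cd74* lacked those chains, but in vehicle β-cells 60 of 70 did, so the pattern is not particular to ductal cells. With at least 3 *Cd74* UMIs, the chains were lacking in 22 of 27 ductal, 2 of 40 endothelial and 1 of 5 β-cell droplets under vehicle. Under FAKi they were lacking in 5 of 10 ductal and 1 of 22 endothelial droplets. *H2-DMa* and *H2-DMb1* occurred together in 5 vehicle ductal droplets, and in 88 of 129 vehicle macrophages. Both contrasts with macrophages also depend on the level of the genes, which was far higher in macrophages.

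Free RNA from other cells can give UMIs in droplets that do not make a gene, so the ductal values were set beside β-cells, which do not normally make class II molecules, and then beside the other classes. *H2-DMb1* was at 16.6 CPM in vehicle and 12.9 CPM in FAKi ductal cells. In β-cells it was detected in 0.465% and 0.524% of droplets at a median depth of 30792.5 and 30427.5 UMIs, beside 9546 and 9661.5 UMIs in ductal cells. The ductal level was 111 times the β-cell level under vehicle (46.0 to 348) and 70.7 times under FAKi (30.2 to 192), and *Cd74* was 17.7 and 22.4 times higher. With every droplet thinned to 1000 UMIs, *Cd74* was detected in 3.84% of vehicle ductal and 0.753% of vehicle β-cells. *H2-DMb1* was then detected in 1.62% of ductal droplets and in 0 of 1063 β-cells, for which the limit is 0.282%. β-cells were the lowest class for *Cd74* on this scale, though. It was detected in 8.15% of thinned vehicle Acinar_cells_1, 2.92% of pericytes and 1.47% of α-cells, so the ductal share of *Cd74* was not above that of every other class outside the immune cells. *H2-DMb1* was detected in 0 of 135 Acinar_cells_1 (a limit of 2.22%), 0 of 137 pericytes (2.19%), 0 of 272 α-cells and 2 of 315 δ-cells. Thinned FAKi droplets did not show the *H2-DMb1* contrast, with 1 of 155 ductal cells (0.645%), 1 of 208 Acinar_cells_1, 1 of 434 α-cells, 1 of 343 δ-cells and 0 of 1320 β-cells. Per 100 *Cd74* UMIs, ductal droplets with under 10 class II UMIs held 50.5 *H2-DMb1* UMIs (39.2 to 64.7) under vehicle and 43.9 under FAKi, and 7.73 *H2-Aa* UMIs (4.25 to 13.1) under vehicle. That limit counts *Cd74* itself and so drops ductal droplets rich in it. With only the vehicle droplet with the most class II UMIs left out, the *H2-DMb1* values were 32.1 and 35.0. All vehicle ductal droplets together held 104 *H2-DMb1* and 519 *Cd74* UMIs. The paralog *H2-DMb2* had 7 and 4 UMIs in ductal cells.

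The ductal difference in the class II sum rested on 1 droplet. Summed over the genes, ductal cells were at 139 CPM in the vehicle and 73.2 CPM in the FAKi library (0.526, 0.442 to 0.624). *Cd74* was at 83.1 and 36.8 CPM (0.443) and *H2-Aa* at 14.1 and 5.52 CPM (0.392), 2 of the 4 members with at least 100 UMIs and both past 2-fold lower, beside 1.28% of 8601 genes. *H2-Aa*, with 88 and 12 UMIs, had that many only through the vehicle library. A single vehicle droplet, with 108 macrophage marker and 297 ductal marker UMIs, held 388 of the 869 class II UMIs. Without it the levels were 77.3 and 73.2 CPM (0.947, 0.786 to 1.14). *Cd74* was still lower in the FAKi library, at 50.1 and 36.8 CPM (0.735, 0.567 to 0.942), but no longer past 2-fold, and *H2-Ab1* was higher, at 3.54 and 10.1 CPM (2.86, 1.51 to 5.42). Over all ductal droplets β-cell markers summed to 24298 and 53910.5 CPM and α-cell markers to 3290 and 1821 CPM, and their part was not tested.

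The annotated T cells had almost all their class II RNA in 3 droplets. In the vehicle library 1 droplet with 14 *Xcr1* UMIs held 1726 of the 1997 class II UMIs of 168 droplets. In the FAKi library droplets with 10 and 18 *Xcr1* UMIs held 1270 and 798 of the 2090 UMIs of 28 droplets. With them the ratio was 1.80, with 1 of 5 members past 2-fold higher beside 36.0% of 1928 genes in either direction and 5.08% higher, and without them 0.148 (284 and 41.8 CPM). The FAKi droplets went against the label: T-cell markers had UMIs in 6 of 28 of them, beside 128 of 168 vehicle droplets, and *Ins2* was at 293516 CPM.

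The endocrine, acinar and stromal classes had at most 286 CPM of class II, and their levels spread widely. In β-cells *Cd74* was at 4.69 CPM in the vehicle and 1.64 CPM in the FAKi library (0.350, 0.257 to 0.472), found in 6.51% and 3.67% of droplets. 2 vehicle droplets with 40 and 47 B-cell marker UMIs held 45 and 32 of its 156 *Cd74* UMIs. *Cd74* was 1 of 2 members of β-cells with at least 100 UMIs and the one past 2-fold lower, beside 0.362% of 11059 genes. Without droplets with 3 or more B-cell marker UMIs (950 vehicle and 1229 FAKi β-cells kept) it was at 2.33 and 1.72 CPM (0.737, 0.512 to 1.06), no longer past 2-fold. The other, *H2-DMa*, was at 2.13 and 2.03 CPM in 5.95% and 5.61% of droplets. The *H2-DMa* annotation overlaps *Brd2* on the other strand, and whether the counting used strand is not given in the sources used here, so its low level is uncertain. *Ciita* had 1 and 2 UMIs over 1076 and 1336 β-cells.

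δ-cells were at 27.2 CPM of class II in the vehicle, where 1 droplet held 51 of 127 UMIs, and at 5.96 CPM in the FAKi library. Droplets with under 10 class II UMIs were at 14.2 and 5.96 CPM. α-cells were at 22.7 and 26.0 CPM, with 98 of the 156 FAKi UMIs in 1 droplet. Over droplets with under 10 class II UMIs the order turned, with 16.7 CPM in vehicle and 9.68 CPM in FAKi α-cells. Acinar_cells_1, the shallowest class (median depths 1480 and 1140 UMIs), were at 286 CPM in 161 vehicle and 47.6 CPM in 297 FAKi droplets (0.166, 0.110 to 0.247). *Cd74* there was at 128 and 25.9 CPM and *H2-Eb1* at 53.8 and 4.08 CPM (19 and 3 UMIs). With at least 1000 detected genes the class was at 13.6 and 13.5 CPM. Those values rest on few UMIs, since the whole class held 101 and 35 class II UMIs. Thinned to 1000 UMIs, a class II UMI was found in 24 of 135 vehicle (17.8%) and 5 of 208 FAKi droplets (2.40%). The levels were then 215 and 91.3 CPM, so a difference remained at that depth. β-cell markers in this class summed to 157428 and 252096 CPM and α-cell markers to 2737 and 9117 CPM, and their part in the result was not tested. The deeper 2_Acinar_cells were at 31.0 (22.2 to 42.3) and 10.6 CPM (6.07 to 17.2), with 40 and 16 UMIs in all. Pericytes were at 52.2 and 24.2 CPM, with intervals that overlapped. Fibroblasts were at 60.4 and 27.4 CPM, but 3 of 264 vehicle droplets held 85 of the 152 UMIs, and the remaining fibroblasts were at 27.0 and 27.4 CPM. The class II total of the whole FAKi library was smaller, 419 CPM against 1185 CPM, and its part in these levels was not tested.

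Across the 24 class-by-library groups, the genes whose log2(CPM + 1) followed *Cd74* most closely of 14091 were *H2-Ab1* (Pearson r = 0.986), *H2-Aa* (0.979) and *H2-Eb1* (0.976). All 6 other members were among the closest 10, with *H2-DMa* at 0.949, *Ciita* at 0.946 and *H2-DMb1* at 0.942. The 4 genes outside the set were *Cyth4* (0.967), *Laptm5* (0.946), *Cd52* (0.943) and *Gmfg* (0.941). The groups share 2 libraries and differ in depth, so these are descriptions only. Without FAKi B cells *H2-Ab1* remained at 0.984.

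A wider list of 35 class II pathway genes, of which 31 are listed in the table, held DO and the second DM β gene, CIITA partners, endosomal proteases, interferon-γ signalling and costimulatory genes. In macrophages 30 had at least 20 UMIs, of which 0 were past 2-fold higher and 5 lower, beside 2.65% and 8.22% of 7102 genes, with a median log2 ratio of -0.15. The 5 were *H2-Oa* (69.2 and 31.5 CPM), *H2-Ob* (38.3 and 11.8), the kinase *Jak2* (60.9 and 9.83), and the costimulatory and checkpoint genes *Cd40* (21.7 and 1.97) and *Cd274* (31.7 and 11.8). In the FAKi library they had 16, 6, 5, 1 and 6 UMIs, in the same order. They were not read again without the dendritic-cell droplets of this mixed class. The 3 most abundant were the cathepsins *Ctss*, which trims the invariant chain, at 2093 and 2522 CPM, *Ctsb* at 1342 and 2012 CPM and *Ctsd* at 948 and 1772 CPM. None of the 7 CIITA partners, the factors that bind the X and Y boxes among them, was past 2-fold, and their median was 0.02.

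In the endothelium 1 of 22 such genes was past 2-fold higher, *Cd274*, the ligand PD-L1, at 18.8 and 50.6 CPM (2.69, 1.92 to 3.78), and 0 lower, beside 1.07% and 4.02% of 10666 genes, with a median of -0.15. Of the 6 genes of the interferon-γ axis 0 were past 2-fold, with a median of -0.10, and the interferon-responsive factor *Irf1* was at 286 and 190 CPM. These values are for both endothelial clusters together and were not read for either alone. *Ctss*, at 4 and 2 UMIs, was nearly undetected there. In ductal cells 1 of 21 was past 2-fold higher and 1 lower, beside 1.42% and 2.39% of 12058 genes, the lower being *Ctss* at 4.80 and 1.38 CPM, with a median of -0.04. In B cells 1 of 22 was higher, *Ifngr1* (67.9 and 222 CPM), and 5 lower, beside 10.0% and 26.9% of 4081 genes. Those were *H2-DMb2* (597 and 169 CPM), *Ifi30* (767 and 378 CPM), *Ctsd* (40 and 2 UMIs), *Lgmn* (25 and 0 UMIs) and *Cd274* (69 and 0 UMIs). The 9 FAKi droplets of that class include the 5 that went against its label.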

How the data were processed

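Droplet 3' libraries of handpicked islets, 1 per treatment on 4 lanes each, were analysed from the deposited table of UMI counts per gene and cell. The authors made it with Cell Ranger and filtered cells with Seurat 3.1, and the deposited percent of mitochondrial UMIs is under 8 in every cell. The genome build was mm10 per the submitters' processing notes. The aligner settings, annotation and strand use are not given in the sources used here. Classes and clusters are the authors' annotation. The 7 genes and all lists were chosen with earlier results of these data known.

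Counts were summed per class and library and divided by the summed UMIs (CPM). Intervals at 95% were exact Poisson for CPM, Clopper-Pearson for shares and exact conditional binomial for ratios, computed with scipy 1.17.1, numpy 2.4.6 and pandas 2.3.3 in Python 3.11.15. Only the ratio intervals were tested, on simulated counts that hold counting error alone. A count of 0 was given the limit of 3 counts. "Past 2-fold" was read over genes with at least 100 UMIs in the class, or 20 where said, on log2(CPM + 1). Named genes were the 7 members, the 10 genes most like *Cd74*, and pathway genes past 2-fold or among the 3 most abundant of a class, except 1 pathway gene that is not reported here. *Irf1* and *Ctss* in the endothelium, and the genes that split the macrophage class, were chosen after their values were seen. Doublets stayed in, and removing those called by scrublet (scanpy 1.11.5, seed 0; 68 vehicle and 57 FAKi droplets) was an alternative. Other alternatives were the mean over cells, leaving out the 20 most abundant genes, a mitochondrial limit of 5%, at least 1000 detected genes, thinning to 1000 UMIs, and leaving out single droplets or droplets with marker UMIs. Median depth was 10101.5 UMIs per vehicle and 13688 per FAKi droplet. Figures were drawn with matplotlib 3.10.9.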

Additional observations from a re-analysis of the deposited data

Results flagged for a closer look

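The summed class II level, over all droplets of a class, had a log2 FAKi over vehicle ratio below 0 in macrophages and above 0 in B cells, T cells and endothelial cells. The difference was not tested, since each treatment was 1 library. In macrophages the ratio was -0.26, but it was 0.018 without droplets with *Xcr1* UMIs, 0.091 with droplets thinned to 1000 UMIs and -0.044 as a mean over cells. It was 0.68 in B cells, where 5 of the 9 FAKi droplets had *Xcr1* UMIs, and 0.20 without those. It was 0.85 in T cells, where 3 droplets held nearly all class II UMIs, and -2.73 without them. It was 0.68 in endothelial cells, where 23 vehicle and 19 FAKi droplets held most of them.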

How the results depend on the processing

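No paired analysis was possible because the lane numbers shared by the labels are not recorded in the barcodes, and with 1 library per treatment no replicate could be left out. Under some alternative most class II levels moved by more than their counting interval, and 18 of the 24 class levels by over 1.5 times. The vehicle level of Acinar_cells_1 ran from 13.6 CPM with at least 1000 detected genes (log2 ratio -0.011) to 535 CPM without the 20 most abundant genes, where 286 CPM is reported, and α-cells turned to -1.13 under 5% mitochondrial UMIs. Below, levels are CPM of the class II sum and ratios are log2 FAKi over vehicle; the reported values are 42001 and 35070 CPM in vehicle and FAKi macrophages, 24197 and 38845 in B cells, 272 and 437 in endothelium, 139 and 73.2 in ductal cells, and ratios of -0.26, 0.68, 0.68 and -0.92.

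As the mean over cells, macrophages were at 47754 and 46322, B cells at 28506 and 34411, FAKi endothelium at 395 and vehicle ductal cells at 109, with ratios of -0.044, 0.27 and -0.41 in macrophages, B cells and ductal cells. The macrophage ratio of *Cd74* reversed to 0.0010 and of *H2-Ab1* to 0.16. Without the 20 most abundant genes macrophages were at 51282 and 43765 (-0.23), B cells at 27022 and 42172, endothelium at 314 and 524, and vehicle ductal cells at 156. Under 5% mitochondrial UMIs macrophages were at 43558 and 36984, B cells at 20337 and 41029 (1.01), FAKi endothelium at 383 (0.48) and vehicle ductal cells at 180 (-1.24). With at least 1000 detected genes FAKi macrophages were at 34088 (-0.30) and vehicle B cells at 23391 (0.76). Without scrublet doublets vehicle B cells were at 25968 (0.58) and endothelium at 243 and 501 (1.04). Thinned to 1000 UMIs, macrophages were at 47291 and 50383, B cells at 29550 and 31556, FAKi endothelium at 372 and vehicle ductal cells at 113, with ratios of 0.091 (reversed), 0.095, 0.45 and -0.43. Thinning also reversed macrophage *Cd74* (0.11), *H2-Aa* (0.029), *H2-Ab1* (0.31) and *Ciita* (1.47) and the sum in 2_Acinar_cells (0.57), and it leaves out shallower cells. Without the droplet with the most class II UMIs of each class and library, macrophages were at 41364 and 33647 (-0.30), FAKi B cells at 34889 (0.54), endothelium at 220 and 389, and vehicle ductal cells at 77.3 (-0.21), with ductal *H2-Aa* reversed to 0.079. Without droplets with a macrophage, dendritic-cell or B-cell marker UMI endothelium was at 249 and 555 (1.15) and ductal cells at 75.8 and 90.9 (0.26, reversed). T cells (-4.07), fibroblasts (0.023) and ductal *H2-Aa* (0.17) reversed too. With at least 5 class II UMIs 45 vehicle endothelial droplets were counted, and with at least 20, 7 vehicle and 11 FAKi droplets, in place of 23 and 19. With genes of at least 20 UMIs, 10.9% rather than 5.77% of macrophage genes were past 2-fold.

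The following were chosen after seeing the data. Without droplets with *Xcr1* UMIs macrophages were at 39896 and 40387 (0.018, reversed) and FAKi B cells at 27824 (0.20). The ratios of T cells (-2.73), macrophage *H2-Aa* (0.031) and *H2-Ab1* (0.18) and B-cell *H2-Aa* (-0.012) reversed. Without droplets with *Xcr1* or B-cell marker UMIs T cells were at -0.89 (reversed). Without *S100a8* droplets vehicle macrophages were at 42860 (-0.29), and without the droplets low in *H2-Eb1* FAKi macrophages were at 36636 (-0.20). Without droplets with 3 or more B-cell marker UMIs vehicle endothelium was at 175 (1.31). With *Zbtb46* and *Fscn1* not counted as markers, endothelium was at 163 and 388 (1.24) and ductal cells at 86.1 and 87.9 (0.030, reversed), with T cells at -4.07 and ductal *H2-Aa* at 0.064 reversed. Beyond these, 35 of the 115 alternative values of the summed levels and ratios moved less than their counting interval, and for single genes and other classes 362 of 544 did. The cause of these moves was not tested beyond the droplets left out. FAKi B cells are limited by their number (9 droplets), and *Ciita* outside antigen-presenting cells by depth.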
